A study of Mus musculus with 12 samples.

Results

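Messenger RNA of 9 genes of the death receptor pathway was followed in mouse liver: the receptors Fas, Tnfrsf10b and Tnfrsf1a, the adaptor Fadd, caspase-8 (Casp8), its inhibitor Cflar, its substrate Bid, and the kinase Ripk1 and the pseudokinase Mlkl of necroptosis. The genes were chosen by name from the 55487 genes of the deposited expression table, and each of the 9 names matched 1 gene. The 12 livers came from healthy male Kunming mice, an outbred stock, with 4 mice per group and 1 poly(A)-selected library per liver. The MTP+CR group received 300 μg/kg triptolide together with 100 mg/kg crocin, the MTP group received 300 μg/kg triptolide alone, and the NC group received normal saline, each by daily oral gavage of 0.2 ml per 10 g for 7 days. Triptolide, a diterpenoid from the thunder god vine, inhibits transcription, while crocin is the carotenoid pigment of saffron. No group with crocin alone was analysed here.

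Death receptors are members of the TNF receptor family that carry a death domain inside the cell. At Fas and Tnfrsf10b, ligand binding gathers Fadd and procaspase-8 at the receptor, where caspase-8 is activated unless Cflar (c-FLIP) takes its place. In hepatocytes the signal usually has to pass through cleavage of Bid and the mitochondria to kill the cell, and mouse liver is well known for its sensitivity to Fas. Where caspase-8 is blocked, Ripk1 can engage Ripk3 and Mlkl, which permeabilizes the plasma membrane in necroptosis.

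Casp8 and Cflar are neighbors on mouse chromosome 1 and are transcribed in the same direction. In GENCODE vM21 on mm10, Cflar spans chr1:58711508-58758884 and Casp8 spans chr1:58795374-58847503, both on the plus strand, and no exon of either overlaps an exon of another gene. Ripk1 (chr13:34002363-34037147, plus strand) shares 241 exonic bases with Serpinb6a on the opposite strand and 511 with the processed pseudogene Gm17084. Bid (chr6:120891930-120916853, minus strand) shares 628 exonic bases with Bcl2l13, and Fadd (chr7:144577318-144582463, minus strand) shares 239 with its antisense gene Faddos, which had 0 to 4 counts per library. Bcl2l13 had 497 to 1716 counts per library and Serpinb6a 150 to 513. The use of strand in the counting is not given in the sources used here. Reads within the bases shared by such pairs therefore cannot be told apart. The other members are Fas (chr19:34290666-34327772, plus strand), Tnfrsf10b (chr14:69767472-69784411, plus strand), Tnfrsf1a (chr6:125349362-125362484, plus strand) and Mlkl (chr8:111311797-111338177, minus strand), and none of them shares exonic bases with another gene.

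The windows at the annotated starts of Casp8 and Ripk1, which were both lower in MTP+CR than in MTP livers, and of Cflar, the inhibitor encoded beside Casp8, are shown to set these genes side by side. Each window has 300 bases, taken from RefSeq on GRCm38.p6 and written 5′ to 3′ on the strand of the gene. Capitals mark matches on either strand to 3 promoter motifs. The GC box was searched as GGGCGG. The TATA box was searched as TATAAA, and the CCAAT box by the letters of its name, with no overlap between different motifs in these windows. Casp8 is at chr1:58802252-58802551, Cflar at chr1:58711241-58711540, and the first of the 2 windows of Ripk1 at chr13:34002113-34002412, all on the plus strand. The Casp8 window belongs to a RefSeq start that lies inside the GENCODE span given above, downstream of its first base. Whether a GENCODE transcript also starts there was not examined.
Casp8: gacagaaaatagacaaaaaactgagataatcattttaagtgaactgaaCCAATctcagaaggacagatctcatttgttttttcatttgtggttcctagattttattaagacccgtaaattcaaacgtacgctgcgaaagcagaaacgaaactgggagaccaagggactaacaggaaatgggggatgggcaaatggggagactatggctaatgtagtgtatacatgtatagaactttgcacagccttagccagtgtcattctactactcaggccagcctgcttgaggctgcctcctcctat
Cflar: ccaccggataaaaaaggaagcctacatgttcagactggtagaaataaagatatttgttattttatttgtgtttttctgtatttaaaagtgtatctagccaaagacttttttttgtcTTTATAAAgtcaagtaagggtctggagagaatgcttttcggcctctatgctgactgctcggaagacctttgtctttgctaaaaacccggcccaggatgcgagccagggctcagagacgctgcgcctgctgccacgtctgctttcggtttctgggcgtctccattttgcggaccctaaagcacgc
Ripk1: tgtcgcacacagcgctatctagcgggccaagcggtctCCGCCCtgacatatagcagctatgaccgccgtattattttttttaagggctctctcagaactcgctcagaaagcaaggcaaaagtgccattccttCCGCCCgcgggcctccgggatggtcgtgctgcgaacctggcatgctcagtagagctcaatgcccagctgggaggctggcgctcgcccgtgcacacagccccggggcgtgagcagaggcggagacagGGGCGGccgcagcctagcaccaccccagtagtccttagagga
The Casp8 window held 1 CCAAT box and had a GC content of 42%. The Cflar window held 2 overlapping TATA box matches at a GC content of 45%, and the Ripk1 window held 3 GC boxes at a GC content of 61.7%. Of 32851 windows of this length, 35.7% held a GC box, 37.4% a CCAAT box and 13.6% a TATA box. An NF-kB site, present in 4.51% of all windows, and a p53 half-site, present in 8.36%, had no match in the windows of the 8 members that had one. A match describes the letters of the window only.

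The libraries held 15509226 to 18430566 counted fragments. Alb and Ttr, the defining hepatocyte markers, were at 2030 CPM or more in every library. Levels of 1 gene across livers are given as CPM, counts relative to the library total after TMM scaling, with factors of 0.823 to 0.989 for MTP+CR livers, 1.07 to 1.52 for MTP livers and 0.836 to 0.952 for NC livers. A call required a fold change above 1.5 and a Benjamini-Hochberg adjusted p under 0.05 over the 15197 genes tested by edgeR's quasi-likelihood fit, and all 9 members were among them. MTP against NC and MTP+CR against MTP share the MTP libraries, so a high MTP value enters both comparisons. MTP 4 was the lowest MTP library for 31.6% and the highest for 31.2% of the tested genes, and MTP+CR 4 was the lowest and the highest of its group for 33.0% each, above the shares of the other libraries of these groups. MTP 4 was the lowest MTP library for 7 of the 9 members. NC 3 was the lowest NC library for 7 of them, beside 21.5% of all tested genes. MTP 1 and MTP 3 had the largest TMM factors (1.52 and 1.31) and the most genes with a count (24070 and 23307, against 19104 to 21394 in the other libraries). Whether these features of the libraries have a part in the results was not tested. In such bulk samples, fewer cells of a type and less RNA per cell cannot be told apart.

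Levels of different genes were compared as FPKM, which is divided by gene length. Tnfrsf1a, the TNF receptor that can signal both survival and death, had the highest mean level in all 3 groups, at 20.2 ± 2.89 FPKM in MTP+CR, 45.8 ± 9.10 FPKM in MTP and 25.6 ± 11.4 FPKM in NC livers (SD, n = 4 each). Casp8 and Fas came next, and their ranges overlapped within each group. Tnfrsf10b, the mouse receptor for TRAIL, had the lowest mean in all 3 groups, at 0.141 ± 0.0584 FPKM in MTP+CR, 2.92 ± 3.22 FPKM in MTP and 0.201 ± 0.0302 FPKM in NC livers (SD, n = 4 each). In the MTP group its range overlapped that of Fadd, the next gene in the order, whereas in MTP+CR and NC livers it lay below every other member. Cflar, Mlkl, Fadd, Bid and Ripk1 lay between 1.97 and 5.75 FPKM on average in every group, and each overlapped its neighbor in the order. The FPKM values carry no TMM factor.

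**Figure D1:**
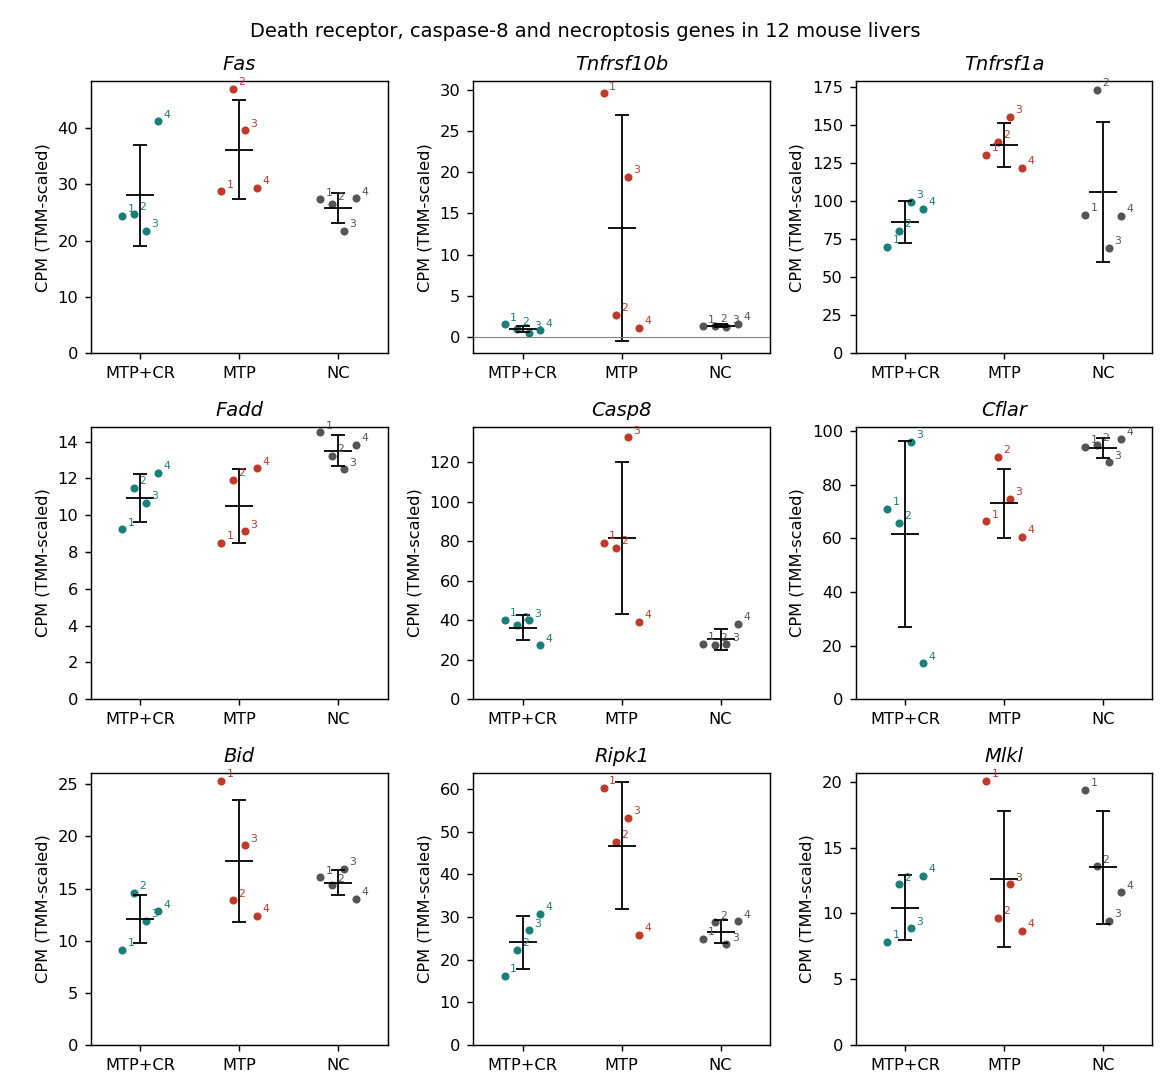
TMM-scaled CPM (vertical axes, linear, from 0 or just below) of the 9 genes in each liver of the MTP+CR, MTP and NC groups (horizontal axes). Points are single livers with their replicate number, and bars give the mean ± SD of 4 livers. Casp8 lay at 39.1 CPM or more in every MTP liver and at 38.1 CPM or less in every NC liver, and Tnfrsf10b was high in MTP 1 and MTP 3.

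Among the receptors, Tnfrsf10b stood at 1.56, 1.04, 0.58 and 0.86 CPM in MTP+CR livers 1 to 4, at 29.5, 2.73, 19.5 and 1.18 CPM in MTP livers 1 to 4, and at 1.31, 1.40, 1.28 and 1.67 CPM in NC livers 1 to 4. MTP 1 and MTP 3 were far above all other livers, MTP 2 was moderately above, and MTP 4 lay within the MTP+CR range and below every NC liver. These levels rest on 9 to 22 counts per MTP+CR library, 22 to 720 per MTP library and 18 to 24 per NC library. Tnfrsf10b was called higher in MTP than in NC livers, with a log2 fold change of 3.22 ± 0.779 (SE) and an adjusted p of 0.0322, and ranked 74 of the 15197 genes by log2 fold change. It was called lower in MTP+CR than in MTP livers, with a log2 fold change of -3.70 ± 0.804 (SE) and an adjusted p of 0.0201. Between MTP+CR and NC livers its log2 fold change was -0.48, with a 95% interval of -2.18 to 1.21. The call for MTP against NC was lost without MTP 1 (log2 fold change 2.44, adjusted p = 0.0981), without MTP 3 (2.96, adjusted p = 0.0920) and without any 1 of the 4 NC livers (3.17 to 3.30, adjusted p = 0.0686 to 0.0935), as well as with a block for the replicate number (2.61, adjusted p = 0.0982), with only the compared groups in the fit (3.22, adjusted p = 0.0666) and with limma on log2(FPKM + 1) or log2(FPKM + 0.1) (1.27, adjusted p = 0.0652, and 2.33, adjusted p = 0.054). That for MTP+CR against MTP was lost without MTP 1 (-2.93, adjusted p = 0.0595), without MTP 3 (-3.45, adjusted p = 0.0584), without MTP+CR 4 (-3.63, adjusted p = 0.0525) and with only the compared groups (-3.70, adjusted p = 0.0593).

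Fas, the receptor for Fas ligand, stood at 24.5, 24.7, 21.7 and 41.2 CPM in MTP+CR livers 1 to 4, at 28.8, 47.0, 39.6 and 29.4 CPM in MTP livers 1 to 4, and at 27.3, 26.5, 21.8 and 27.5 CPM in NC livers 1 to 4. Every MTP liver was above every NC liver, by as little as 1.26 CPM, while the MTP+CR range overlapped both others, that of MTP only through MTP+CR 4. The log2 fold change was 0.49 for MTP against NC (95% interval -0.03 to 1.01, adjusted p = 0.252) and -0.37 for MTP+CR against MTP (95% interval -0.89 to 0.15, adjusted p = 0.298) with edgeR's quasi-likelihood test, so neither was called. Without both MTP 4 and MTP+CR 4, Fas was called lower in MTP+CR than in MTP livers, with a log2 fold change of -0.68 and an adjusted p of 0.0385. Fas was also called in both comparisons with scaling by total counts (0.95 and -0.88, adjusted p = 0.0232 and 0.0215 with edgeR) and on both FPKM scales. Total counts moved the median log2 fold change of all tested genes to 0.499 and -0.54. It was 0.252 and -0.253 on log2(FPKM + 1), and 0.427 and -0.473 on log2(FPKM + 0.1). Relative to the median, Fas was at 0.45 and -0.34 with total counts and at 0.465 and -0.339 with TMM.

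Tnfrsf1a stood at 69.8, 80.6, 99.4 and 94.8 CPM in MTP+CR livers 1 to 4, at 130, 139, 155 and 122 CPM in MTP livers 1 to 4, and at 91.0, 173, 69.1 and 90.1 CPM in NC livers 1 to 4. Every MTP+CR liver was below every MTP liver. NC 2 was the highest of all 12 livers, and only through it did the NC range overlap that of MTP. NC 1 and NC 4 lay within the MTP+CR range. The log2 fold change was -0.66 for MTP+CR against MTP (95% interval -1.24 to -0.09, adjusted p = 0.102) and 0.37 for MTP against NC (95% interval -0.21 to 0.94, adjusted p = 0.454) with edgeR's quasi-likelihood test, and neither passed. Without NC 2 the log2 fold change for MTP against NC was 0.70, and it was not called either. Tnfrsf1a was called in both comparisons on both FPKM scales, and for MTP+CR against MTP also with scaling by total counts (-1.18, adjusted p = 0.0122 with edgeR). Relative to the median of all tested genes, Tnfrsf1a was there at -0.644 with total counts and at -0.634 with TMM. NC 2 also had the largest sum of monocyte and neutrophil markers among NC livers, 135 CPM against 18.5 to 73.3 CPM in the other 3. Within the MTP group this sum was lowest in MTP 3 (59.4 CPM), where Tnfrsf1a was highest. It was 809 CPM in MTP 1 and 449 CPM in MTP 4, where Tnfrsf1a was at 130 and 122 CPM. The part of these cells in the Tnfrsf1a level was not tested.

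Fadd, the adaptor between receptor and caspase-8, stood at 9.24, 11.5, 10.7 and 12.3 CPM in MTP+CR livers 1 to 4, at 8.49, 11.9, 9.13 and 12.5 CPM in MTP livers 1 to 4, and at 14.5, 13.2, 12.5 and 13.8 CPM in NC livers 1 to 4. Every MTP+CR liver was below every NC liver, and MTP 4 reached the lowest NC liver. The log2 fold change was -0.36 for MTP against NC (95% interval -0.79 to 0.06), 0.06 for MTP+CR against MTP (95% interval -0.37 to 0.48) and -0.31 for MTP+CR against NC (95% interval -0.73 to 0.12), and none was called (adjusted p = 0.304, 0.868 and 0.376 in this order with edgeR's quasi-likelihood test). The signs of the first 2 turned with scaling by total counts, to 0.08 and -0.43. Relative to the median of all tested genes they were -0.415 and 0.114 with total counts, and -0.385 and 0.0849 with TMM.

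Casp8, the initiator caspase of the pathway, stood at 40.2, 37.8, 40.0 and 27.3 CPM in MTP+CR livers 1 to 4, at 79.1, 76.7, 133 and 39.1 CPM in MTP livers 1 to 4, and at 28.0, 27.4, 27.8 and 38.1 CPM in NC livers 1 to 4. MTP 3 was the highest liver and MTP 4 the lowest of its group, so close to NC 4 that the MTP and NC groups were separated by 0.959 CPM. The mean was 36.3 ± 6.12 CPM in MTP+CR, 81.9 ± 38.5 CPM in MTP and 30.3 ± 5.19 CPM in NC livers (SD, n = 4 each). Casp8 rose 2.70-fold in MTP livers against NC livers, with a log2 fold change of 1.43 ± 0.307 (SE) and an adjusted p of 0.0199 with edgeR's quasi-likelihood test. It fell in MTP+CR livers against MTP livers, with a log2 fold change of -1.17 ± 0.305 (SE) and an adjusted p of 0.0320, while MTP 4 lay within the MTP+CR range. Between MTP+CR and NC livers the log2 fold change was 0.26, with a 95% interval of -0.39 to 0.91. The rise was not called without MTP 3 (log2 fold change 1.09, adjusted p = 0.0667), without NC 1 (1.39, adjusted p = 0.0655) or without NC 3 (1.39, adjusted p = 0.0674). The fall was not called without any 1 of MTP 1, 2 or 3 or MTP+CR 1, 3 or 4, with log2 fold changes of -0.84 to -1.22 and adjusted p-values of 0.0550 to 0.104, the weakest without MTP 3, nor with only the compared groups in the fit (-1.17, adjusted p = 0.0782). The adjusted p-values over all alternatives ran from 0.000498 to 0.0674 for the rise and from 0.00337 to 0.104 for the fall, and the log2 fold change kept its sign in all of them.

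Cflar, the inhibitor, stood at 70.9, 65.8, 95.9 and 13.3 CPM in MTP+CR livers 1 to 4, at 66.4, 90.5, 74.6 and 60.7 CPM in MTP livers 1 to 4, and at 94.2, 94.9, 88.4 and 97.1 CPM in NC livers 1 to 4. The NC livers lay close together, 3 of the 4 MTP livers were below all of them, and MTP+CR 4 was far below every other liver, with 185 counts against 998 to 1742 in the other 11 libraries. The log2 fold change was -0.36 for MTP against NC (95% interval -1.23 to 0.51, adjusted p = 0.655), -0.25 for MTP+CR against MTP (95% interval -1.12 to 0.62, adjusted p = 0.691) and -0.61 for MTP+CR against NC (95% interval -1.48 to 0.26, adjusted p = 0.388) with edgeR's quasi-likelihood test. None was called, and without MTP+CR 4 the last was -0.27 and the second turned to 0.09. With scaling by total counts, the first turned to 0.11. Relative to the median of all tested genes the first was -0.385 with total counts and -0.382 with TMM.

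The ratio of the Casp8 level to the Cflar level, both in FPKM, sets the caspase against its inhibitor within 1 library and does not depend on how libraries are scaled. The ratio was 2.74, 2.77, 2.01 and 9.90 in MTP+CR livers 1 to 4, 5.76, 4.10, 8.59 and 3.11 in MTP livers 1 to 4, and 1.44, 1.40, 1.52 and 1.90 in NC livers 1 to 4. Every MTP liver and every MTP+CR liver was above every NC liver. The highest ratio of all belonged to MTP+CR 4, where Casp8 was the lowest of its group and Cflar lower still. The mean was 4.36 ± 3.71 in MTP+CR, 5.39 ± 2.40 in MTP and 1.56 ± 0.229 in NC livers (SD, n = 4 each), and the median was 2.76, 4.93 and 1.48 in the same order of groups. The ratio was described without a test, and its absolute size depends on the gene lengths in the table, 3716 bases for Casp8 and 17952 bases for Cflar.

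**Figure D2:**
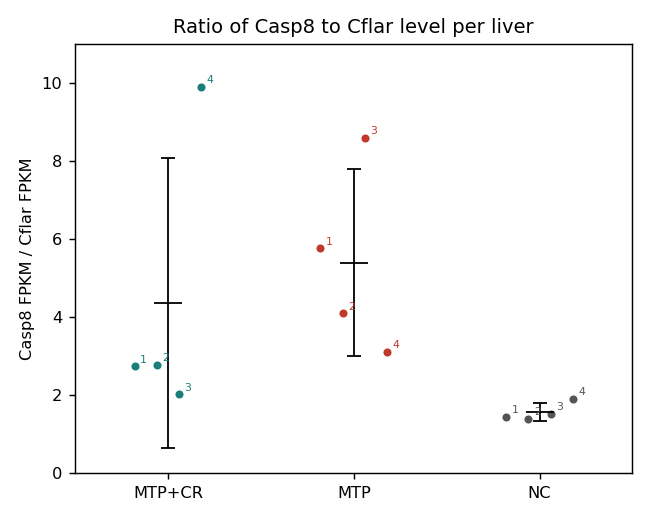
Ratio of Casp8 FPKM to Cflar FPKM (vertical axis, no unit, from 0) in each liver of the MTP+CR, MTP and NC groups (horizontal axis). Points are single livers with their replicate number, and bars give the mean ± SD of 4 livers. The NC livers lay between 1.40 and 1.90, the MTP livers between 3.11 and 8.59, and MTP+CR 4 at 9.90 stood above the other MTP+CR livers (2.01 to 2.77).

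Bid, the BH3 protein through which caspase-8 reaches the mitochondria, stood at 9.10, 14.6, 11.9 and 12.8 CPM in MTP+CR livers 1 to 4, at 25.3, 13.9, 19.2 and 12.4 CPM in MTP livers 1 to 4, and at 16.1, 15.3, 16.9 and 14.0 CPM in NC livers 1 to 4. MTP 1 and MTP 3 were above all other livers, and the other 2 MTP livers were below all NC livers. The log2 fold change was 0.18 for MTP against NC (95% interval -0.34 to 0.71, adjusted p = 0.713) and -0.55 for MTP+CR against MTP (95% interval -1.07 to -0.02, adjusted p = 0.133) with edgeR's quasi-likelihood test, so neither was called. With scaling by total counts Bid was called lower in MTP+CR than in MTP livers (-1.10, adjusted p = 0.0209 with edgeR), as it was on both FPKM scales. Relative to the median of all tested genes, Bid was there at -0.563 with total counts and at -0.517 with TMM.

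Of the necroptosis genes, Ripk1, the kinase that also serves as a scaffold of survival signaling below Tnfrsf1a, stood at 16.3, 22.3, 26.9 and 30.7 CPM in MTP+CR livers 1 to 4, at 60.3, 47.6, 53.2 and 25.8 CPM in MTP livers 1 to 4, and at 24.8, 28.7, 23.6 and 29.0 CPM in NC livers 1 to 4. MTP 1, 2 and 3 were above all other livers, and MTP 4 lay within both other groups. Ripk1 fell in MTP+CR livers against MTP livers, with a log2 fold change of -0.96 ± 0.268 (SE) and an adjusted p of 0.0380 with edgeR's quasi-likelihood test. For MTP against NC the log2 fold change was 0.82 ± 0.268 (SE), with an unadjusted p of 0.00887 and an adjusted p of 0.0892 in the fit over all genes, so it was not called. The fall of Ripk1 was not called without any 1 of the other 11 livers, with adjusted p-values of 0.0506 to 0.114 and log2 fold changes of -0.80 to -1.09, nor with the replicate block (-0.96, adjusted p = 0.0670), with only the compared groups (-0.96, adjusted p = 0.0940), without the filter on low counts (-0.93, adjusted p = 0.0641) or with the trend over gene length removed (-0.70, adjusted p = 0.0990). Without MTP 4 it was called (-1.14, adjusted p = 0.00494), and so was the rise in MTP against NC livers (0.99, adjusted p = 0.0155).

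Mlkl, the executioner of necroptosis, stood at 7.82, 12.2, 8.86 and 12.9 CPM in MTP+CR livers 1 to 4, at 20.1, 9.64, 12.2 and 8.67 CPM in MTP livers 1 to 4, and at 19.4, 13.6, 9.44 and 11.6 CPM in NC livers 1 to 4. The 3 groups overlapped throughout, with 1 high liver each in the MTP and NC groups. The log2 fold change was -0.09 for MTP against NC (95% interval -0.76 to 0.57, adjusted p = 0.898) and -0.28 for MTP+CR against MTP (95% interval -0.94 to 0.39, adjusted p = 0.548) with edgeR's quasi-likelihood test. Its sign for MTP against NC turned to 0.43 with scaling by total counts. Relative to the median of all tested genes, Mlkl was at -0.0649 with total counts and at -0.118 with TMM. Ripk3, the kinase that phosphorylates Mlkl, is not among the 9 genes and was at 2.63 ± 0.549 CPM in MTP+CR, 4.09 ± 1.29 CPM in MTP and 3.19 ± 0.615 CPM in NC livers (SD, n = 4 each), with no call in any comparison.

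**Figure D3:**
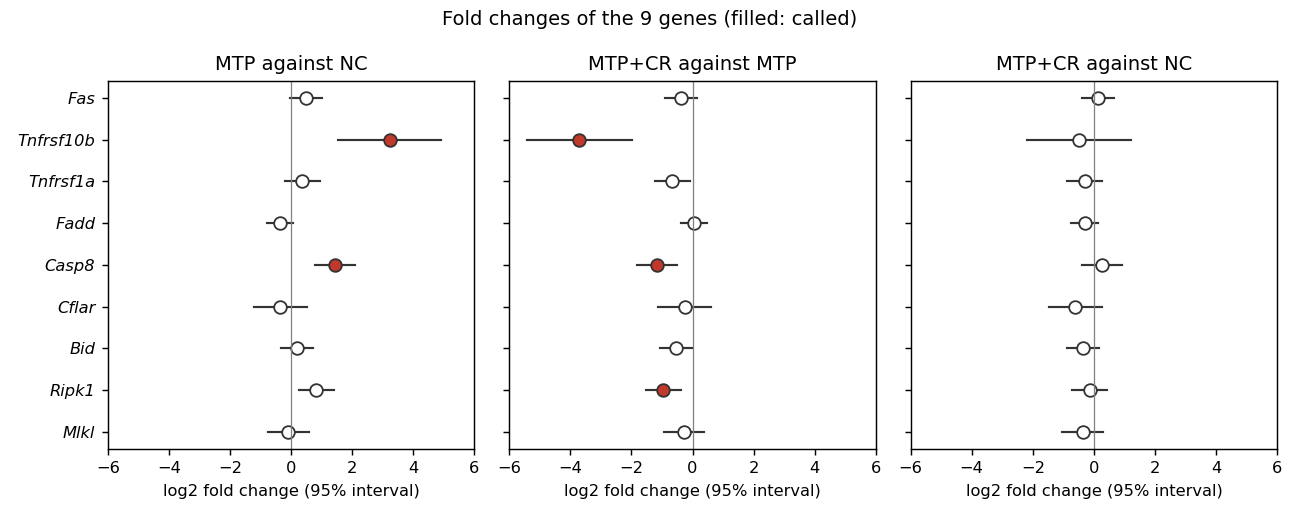
Log2 fold changes of the 9 genes (horizontal axes; points) with 95% intervals (lines) from edgeR's quasi-likelihood fit, for MTP against NC, MTP+CR against MTP and MTP+CR against NC. Filled points are called: 2 genes in the first comparison, 3 in the second and 0 in the third.

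For MTP against NC, 2 of the 9 members were called higher and 0 lower, beside 2.61% of all tested genes called higher and 2.78% called lower. Every MTP liver was above every NC liver for 2 members (Fas and Casp8) and below for 0, beside 6.96% and 7.71% of all genes. The median log2 fold change was 0.37 over the members and 0.02 over all tested genes. An unadjusted p under 0.05 in edgeR was reached by 3 members, beside 22.8% of all tested genes. With DESeq2 the count was 3 higher and 0 lower, Ripk1 being added.

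For MTP+CR against MTP, 0 members were called higher and 3 lower, beside 5.94% of all tested genes called higher and 6.51% called lower. Every MTP+CR liver was above every MTP liver for 0 members and below for 1 member (Tnfrsf1a), beside 6.92% and 7.99% of all genes. The median log2 fold change was -0.55 over the members and -0.03 over all tested genes. An unadjusted p under 0.05 in edgeR was reached by 5 members, beside 33.9% of all tested genes. The 3 called genes, Tnfrsf10b, Casp8 and Ripk1, were also the 3 members with the largest log2 fold changes for MTP against NC, and both comparisons share the MTP livers.

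Between MTP+CR and NC livers, 0 members were called by edgeR's quasi-likelihood test or by DESeq2, beside 0.329% of all tested genes called higher and 1.00% called lower by edgeR. No member had an unadjusted p under 0.05, as against 22.0% of all genes, and the median log2 fold change was -0.31 over the members and -0.02 over all genes. Every MTP+CR liver was above every NC liver for 0 members and below for 1 member (Fadd), beside 7.37% and 8.15% of all genes. The intervals still allowed changes of more than 1.5-fold for all 9 members, the widest being that of Tnfrsf10b.

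The summed markers of some cell types, but not of all, differed between the groups in which members were called. Of all tested genes, 2.61% were called higher and 2.78% lower for MTP against NC, and 5.94% and 6.51% for MTP+CR against MTP. No Kupffer cell, lymphocyte or cholangiocyte marker was called for MTP against NC or for MTP+CR against MTP. Monocyte and neutrophil markers summed to 15.9 to 52.0 CPM in MTP+CR livers, 59.4 to 809 CPM in MTP livers and 18.5 to 135 CPM in NC livers, with 8 of the 12 genes called higher in MTP than in NC livers and 8 called lower in MTP+CR than in MTP livers. Ccr2, a defining monocyte marker, was at 3.09 to 4.70 CPM in MTP+CR, 11.2 to 22.7 CPM in MTP and 4.33 to 9.37 CPM in NC livers. Ly6c2, also a defining marker, was at 85.7 CPM in MTP 1 and otherwise at 2.22 to 2.78 CPM in MTP+CR, 1.34 to 3.86 CPM in MTP and 2.84 to 15.7 CPM in NC livers. Within the MTP group the marker sum was 809 CPM in MTP 1, 99.9 in MTP 2, 59.4 in MTP 3 and 449 in MTP 4. Tnfrsf10b, Bid, Ripk1 and Mlkl were highest in MTP 1 within that group, Casp8 and Tnfrsf1a in MTP 3, Fas and Cflar in MTP 2 and Fadd in MTP 4. Endothelial markers, Kdr and Pecam1 among them, summed to 230 to 336 CPM in MTP+CR livers, 598 to 766 CPM in MTP livers and 691 to 790 CPM in NC livers, and 9 of 12 were called lower in MTP+CR than in MTP livers. Hepatocyte markers, Alb and Ttr among them, summed to 81650 to 124500 CPM in MTP+CR livers, 37860 to 64220 CPM in MTP livers and 105800 to 176400 CPM in NC livers, with 3 of 12 called lower in MTP than in NC livers and 5 called higher in MTP+CR than in MTP livers. Kupffer cell markers, Clec4f and Vsig4 among them, summed to 507 to 1143 CPM in MTP+CR, 562 to 989 CPM in MTP and 834 to 1276 CPM in NC livers. Stellate cell markers, Lrat and Reln among them, summed to 230 to 415 CPM in MTP+CR, 394 to 562 CPM in MTP and 404 to 507 CPM in NC livers. Lymphocyte markers summed to at most 41.7 CPM, with at most 4.58 CPM of the defining Cd3e. Cholangiocyte markers summed to at most 102 CPM in any liver, with at most 9.15 CPM of the defining Krt19, and Krt7 was at 0 in MTP 2. The part of these cells in the results of the 9 genes was not tested.

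The genes nearest to the called members over the 12 livers were those with the smallest root mean square difference of centered log2 CPM. For Casp8 they were D10Wsu102e, the glycerol-3-phosphate dehydrogenase Gpd2 and the sulfhydryl oxidase Qsox2, at 0.218, 0.232 and 0.234 log2 units, beside an SD of 0.697 log2 units of Casp8 itself. These 3, chosen for their likeness to Casp8, were called in the same directions, with log2 fold changes of 1.45 to 1.67 for MTP against NC and -1.20 to -1.35 for MTP+CR against MTP. For Tnfrsf10b they were Rad18, the heat shock protein gene Hspa2 and Polk, at 0.609 to 0.663 log2 units beside an SD of 1.61 log2 units. Rad18 and Polk are DNA damage tolerance genes. All were chosen for their likeness to Tnfrsf10b, so high values in MTP 1 and MTP 3 follow from the choice. In these 2 livers Rad18 was at 21.6 and 22.1 CPM, Hspa2 at 41.4 and 21.1 CPM and Polk at 48.1 and 33.7 CPM. In the other 10 livers they were at most at 6.74, 14.0 and 10.5 CPM in the same order. For Ripk1 they were Utp4, the translation release factor Etf1 and the sphingolipid synthesis gene Sptlc2, at 0.193 to 0.203 log2 units beside an SD of 0.528 log2 units.

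The ligands of the receptors were mostly too scarce to test. Fasl averaged 0.481 CPM in MTP+CR, 0.282 CPM in MTP and 0.435 CPM in NC livers, and Tnf averaged 0.308 CPM in MTP+CR, 0.502 CPM in MTP and 0.254 CPM in NC livers. Of 7 ligand genes, 3 passed the filter on low counts, and 2 of them, Tnfsf10 (TRAIL) and Tnfsf12 (TWEAK), were called lower in MTP than in NC livers. Of all tested genes, 2.78% were called lower in that comparison. Tnfsf10 was at 6.37 ± 1.63 CPM in MTP+CR, 10.3 ± 1.65 CPM in MTP and 33.7 ± 13.6 CPM in NC livers (SD, n = 4 each), with log2 fold changes of -1.71 for MTP against NC (adjusted p = 0.0106) and -2.40 for MTP+CR against NC (adjusted p = 0.00442) with edgeR's quasi-likelihood test. Every liver of both triptolide groups was below every NC liver for Tnfsf10, the ligand of the receptor that Tnfrsf10b encodes. Tnfsf12 was at 8.53 ± 1.87 CPM in MTP+CR, 5.09 ± 1.11 CPM in MTP and 12.02 ± 3.799 CPM in NC livers (SD, n = 4 each), with a log2 fold change of -1.24 for MTP against NC (adjusted p = 0.0228) and of 0.74 for MTP+CR against MTP, which was not called by edgeR (adjusted p = 0.0810) but was by DESeq2. Of the 3 tested ligands, 0 were called by edgeR for MTP+CR against MTP and 1 by DESeq2. At an unadjusted p under 0.05 in edgeR there were 2, beside 33.9% of all tested genes. Both calls of Tnfsf10 held with each of the 12 libraries left out in turn, and that of Tnfsf12 was lost without MTP 3 or NC 2.

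Of 10 other death and decoy receptors of the family, 9 were tested, with 3 called higher and 0 lower in MTP than in NC livers, and 0 higher and 3 lower in MTP+CR than in MTP livers. Of all tested genes, 2.61% were called higher and 2.78% lower in the first of these comparisons, and 5.94% and 6.51% in the second. Comparing MTP+CR with NC livers, edgeR called 0 of the 9, while DESeq2 called 3 (Tnfrsf21, Tnfrsf1b and Tnfrsf12a). At an unadjusted p under 0.05 in edgeR there were 4, beside 22.0% of all tested genes. Tnfrsf12a, the receptor of Tnfsf12, was at 7.92 ± 1.30 CPM in MTP+CR, 16.2 ± 10.1 CPM in MTP and 2.39 ± 0.495 CPM in NC livers (SD, n = 4 each), and rose by a log2 fold change of 2.76 for MTP against NC (adjusted p = 0.00784 with edgeR's quasi-likelihood test). The decoy receptor gene Tnfrsf23 was at 0.213, 1.89, 0.453 and 1.65 CPM in MTP+CR livers 1 to 4, at 40.7, 2.23, 25.9 and 2.10 CPM in MTP livers 1 to 4, and at 1.88, 1.67, 1.14 and 1.46 CPM in NC livers 1 to 4. Eda2r, a receptor of the ectodysplasin family and a p53 target, was at 0.640, 1.37, 0.453 and 0.503 CPM in MTP+CR livers 1 to 4, at 24.5, 4.18, 10.4 and 1.56 CPM in MTP livers 1 to 4, and at 1.03, 0.535, 1.21 and 0.278 CPM in NC livers 1 to 4. MTP 1 and MTP 3 were the high livers for both, as they were for Tnfrsf10b. The log2 fold changes were 3.52 for Tnfrsf23 and 3.72 for Eda2r in MTP against NC, and -4.07 and -3.76 in MTP+CR against MTP. Tnfrsf21 (death receptor 6) fell in MTP+CR against MTP livers by 1.21 on the log2 scale (adjusted p = 0.00847). The calls of Tnfrsf12a, Eda2r and Tnfrsf21 held with each of the 12 libraries left out in turn. Those of Tnfrsf23 were lost without MTP 1, MTP 3 or any 1 NC liver for MTP against NC, and without MTP 1, MTP 3, MTP+CR 1 or MTP+CR 3 for MTP+CR against MTP.

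**Figure D4:**
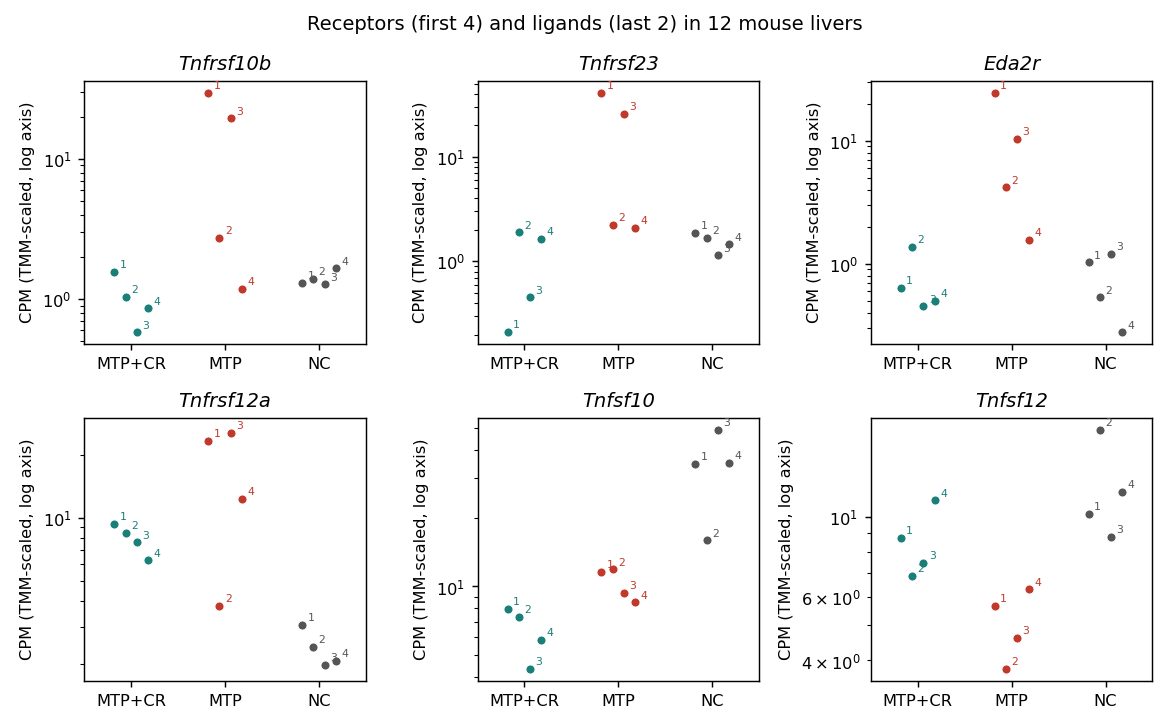
TMM-scaled CPM (vertical axes, log scale, 1 range per panel) of the receptors Tnfrsf10b, Tnfrsf23, Eda2r and Tnfrsf12a and the ligands Tnfsf10 and Tnfsf12 in each liver of the MTP+CR, MTP and NC groups (horizontal axes). Points are single livers with their replicate number. MTP 1 and MTP 3 carried the highest values of all 4 receptors, and Tnfsf10 was at most 7.96 CPM in MTP+CR livers, at most 11.9 CPM in MTP livers and at least 16 CPM in NC livers.

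Of 22 adaptors, ubiquitin ligases and deubiquitinases of the receptor complexes, 0 were called for MTP against NC by edgeR or by DESeq2. At an unadjusted p under 0.05 in edgeR there were 2, beside 22.8% of all tested genes. The genes with the smallest adjusted p were Traf3 (log2 fold change -1.14, adjusted p = 0.109) and Birc2 (0.46, adjusted p = 0.218). The inhibitor of apoptosis Birc3 and the deubiquitinase Tnfaip3 (A20), both known targets of NF-kB, were called lower in MTP+CR than in MTP livers, with log2 fold changes of -0.86 (adjusted p = 0.0429) and -1.18 (adjusted p = 0.0462) in edgeR's quasi-likelihood fit. Of the 12 libraries left out in turn, Birc3 kept its call only without MTP 4 or NC 4, and Tnfaip3 only without MTP 4 or NC 3. In the comparison of MTP+CR with NC, edgeR called 0 of the 22, and DESeq2 called 2 (Pea15a and Birc3). There, 5 had an unadjusted p under 0.05 in edgeR, beside 22.0% of all tested genes.

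Of 12 other caspases and caspase substrates, 0 were called for MTP against NC by edgeR or by DESeq2. At an unadjusted p under 0.05 in edgeR there were 3, beside 22.8% of all tested genes. The caspase substrate Parp1 had a log2 fold change of -0.59 (adjusted p = 0.119) in edgeR's quasi-likelihood fit. In this list Apaf1, the scaffold of the apoptosome, was the only gene called for MTP+CR against MTP, at 4.63 ± 2.57 CPM in MTP+CR and 14.6 ± 8.36 CPM in MTP livers (SD, n = 4 each; log2 fold change -1.66, adjusted p = 0.0451). That call was kept only without MTP 4 or without MTP+CR 2. Between MTP+CR and NC livers edgeR called 0 of the 12, with 3 at an unadjusted p under 0.05, beside 22.0% of all tested genes. Casp1 had the smallest adjusted p (-1.01 on the log2 scale, adjusted p = 0.105 with edgeR) and was the 1 gene called by DESeq2.

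Of 22 genes of the BCL2 family and of mitochondrial death factors, 21 were tested. Bmf, a BH3-only gene, was called lower in MTP than in NC livers (log2 fold change -1.08, adjusted p = 0.0485 with edgeR's quasi-likelihood test) and in MTP+CR than in NC livers (-1.41, adjusted p = 0.0379). Bbc3 (Puma), also BH3-only, and Cycs (cytochrome c) were called higher in MTP+CR than in MTP livers, with log2 fold changes of 1.27 (adjusted p = 0.0331) and 0.72 (adjusted p = 0.0454). Cycs was called higher in MTP+CR than in NC livers too (0.99, adjusted p = 0.0414). The genes of this list called for MTP+CR against MTP were 2 higher and 0 lower, beside 5.94% and 6.51% of all tested genes. These calls depended on scaling and libraries. They became 0 higher and 3 lower with total counts, beside 413 and 4133 of all 15197 tested genes. On log2(FPKM + 0.1) they were also 0 and 3, and on log2(FPKM + 1) they were 0 and 1. With only the compared groups, or without any 1 of MTP 1, MTP 2, MTP 3, MTP+CR 1 or MTP+CR 4, they were 0 and 0, while without MTP 4 they were 8 and 0 and without both MTP 4 and MTP+CR 4 they were 7 and 0. With single libraries left out in turn, the calls of Bmf held in 3 of 12 cases in each comparison, those of Cycs in 2 of 12 in each and that of Bbc3 in 7 of 12.

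Of 10 other necroptosis genes, 0 were called for MTP against NC by edgeR or by DESeq2. At an unadjusted p under 0.05 in edgeR there were 2, beside 22.8% of all tested genes. Tlr4, the endotoxin receptor, was called lower in MTP+CR than in MTP livers (log2 fold change -1.53, adjusted p = 0.0172 with edgeR's quasi-likelihood test) and in MTP+CR than in NC livers (-1.96, adjusted p = 0.0108). Tlr4 is also expressed by endothelial cells and macrophages. Of 9 gasdermin and inflammasome genes, the cytokine genes Il1b (-1.65, adjusted p = 0.0202) and Il18 (-1.18, adjusted p = 0.0388) were called lower in MTP than in NC livers. Gsdme, a gasdermin, was called higher (1.23, adjusted p = 0.0124) and the inflammasome sensor Naip2 lower (-1.87, adjusted p = 0.0320) in MTP+CR than in MTP livers. None of the 9 was called by edgeR between MTP+CR and NC livers, and DESeq2 called 1 (Il1b). There, 3 had an unadjusted p under 0.05 in edgeR, beside 22.0% of all tested genes. Tlr4 lost its call against MTP without MTP 1 and Gsdme kept its call with each library left out, whereas Il1b lost it without MTP 1 or NC 1, Il18 in 6 of 12 cases, and Naip2 without MTP 1, MTP 3, MTP+CR 1, MTP+CR 3 or MTP+CR 4.

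Fas and Tnfrsf10b are known p53 targets, and of 12 other p53 targets 6 were called higher and 0 lower for MTP against NC, then 0 higher and 5 lower for MTP+CR against MTP, beside the 2.61% and 6.51% of all tested genes called in these directions. The 6 became 1 without MTP 3, NC 1 or NC 3, 2 without NC 4, 3 without MTP 1, with the replicate block or without the filter, and 9 with total counts. The 5 became 0 without MTP 1, MTP 3 or MTP+CR 1 and with only the compared groups, 1 without MTP+CR 3 or MTP+CR 4 and with the replicate block, 2 without any 1 NC liver or without the filter, 3 without MTP 2 or MTP+CR 2, and 8 with total counts. With total counts, 2610 of all 15197 tested genes were called higher for MTP against NC and 4133 lower for MTP+CR against MTP. The smallest adjusted p-values belonged to Sesn2 (log2 fold change 1.31, adjusted p = 0.0127), Phlda3 (4.56, adjusted p = 0.0185) and Aen (1.29, adjusted p = 0.0321) in the first comparison, and to Trp53inp1 (-1.59, adjusted p = 0.0187), Phlda3 (-3.30, adjusted p = 0.0346) and Ccng1 (-1.07, adjusted p = 0.0396) in the second, with edgeR's quasi-likelihood test. Phlda3, a repressor of Akt signaling, was at 2.13, 1.83, 0.259 and 3.24 CPM in MTP+CR livers 1 to 4, at 36.4, 4.40, 31.2 and 1.24 CPM in MTP livers 1 to 4 and at 1.25 CPM or less in every NC liver, with MTP 1 and MTP 3 again the high livers. Of these 5 genes, Sesn2 kept its call for MTP against NC with each of the 12 libraries left out, Aen lost it without MTP 3, NC 1, NC 3 or NC 4, and Phlda3 without MTP 3, NC 1 or NC 3. Trp53inp1 lost its call for MTP+CR against MTP without MTP 1, MTP 3 or MTP+CR 1, Phlda3 without MTP 1, MTP 3 or any 1 MTP+CR liver, and Ccng1 in 10 of 12 cases. In MTP+CR against NC livers, edgeR called 0 of the 12, and DESeq2 called 3 (Btg2, Gadd45a and Trp53inp1). At an unadjusted p under 0.05 in edgeR there were 4, beside 22.0% of all tested genes. The list was drawn up with earlier results known and leaves out p53 targets of other lists. Among those, Bbc3 went the other way, at -0.91 (MTP against NC, not called) and 1.27 (MTP+CR against MTP, called). In the same order, Bax was at 0.65 and 0.30 and Pmaip1 at 0.42 and -0.85, none called. Apaf1 was at 0.68 (not called) and -1.66 (called), and Eda2r at 3.72 and -3.76 (both called).

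**Figure D5:**
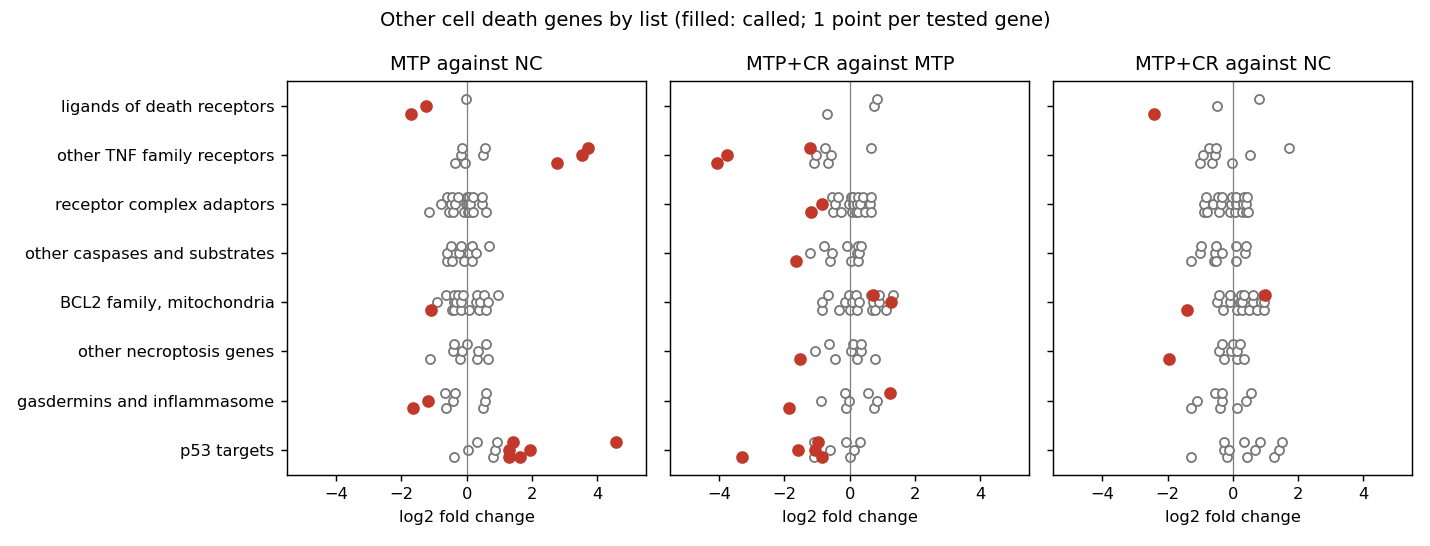
Log2 fold changes (horizontal axes) of the 98 tested genes of the 8 lists of other cell death genes (rows), for MTP against NC, MTP+CR against MTP and MTP+CR against NC. Each point is 1 gene, and filled points are called: 9 higher and 5 lower in the first comparison, 3 higher and 13 lower in the second, and 1 higher and 3 lower in the third.

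Over the 8 lists together, 98 of 104 genes were tested. For MTP against NC, 9 of the 98 were called higher and 5 lower, and for MTP+CR against MTP 3 were called higher and 13 lower, against the shares of all genes given above. Between MTP+CR and NC livers, 1 was called higher and 3 lower. With scaling by total counts these counts became 20 higher and 2 lower for MTP against NC and 0 higher and 33 lower for MTP+CR against MTP. Of all 15197 tested genes, 2610 were then called higher and 321 lower in the first comparison, and 413 and 4133 in the second. Without both MTP 4 and MTP+CR 4, with 100 genes of the lists tested, the counts were 16 and 8 for the first and 9 and 16 for the second. Of all 15436 genes then tested, 1252 and 1363 were called in the first, and 1826 and 1543 in the second. With 1 library left out the list counts fell as low as 3 higher and 2 lower for MTP against NC (without MTP 3 or NC 1, with 3 and 3 without NC 3) and 1 higher and 2 lower for MTP+CR against MTP (without MTP 1, with 1 and 3 without MTP 3 or MTP+CR 1). With only the compared groups they were 6 and 4 for the first and 1 and 2 for the second, and with the replicate block 5 and 5 for the first and 2 and 5 for the second.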

How the data were processed

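Liver mRNA of 12 mice was measured, 4 mice and 4 libraries per group. Per the paper's methods, reads were trimmed and aligned by Hisat2, and Stringtie counted the fragments of each gene, and the submitters' processing notes name Bowtie 0.12.2 and mm10. The annotation release and the use of strand are not given in the sources used here. The deposited counts are whole numbers, unnormalized. The deposited FPKM values equal count over gene length and library total, without a TMM factor (the implied lengths agree to within 0.000983). The table held 0 value columns that match no sample.

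The main test was the quasi-likelihood test of edgeR 4.0.16 (R 4.3.3), fitted once to all 12 libraries after TMM scaling. The filter filterByExpr, with minimums of 10 per gene and 15 in total, left 15197 genes, over which p-values were adjusted by Benjamini-Hochberg. Calls needed a fold change above 1.5 and an adjusted p below 0.05. Alternatives were DESeq2 1.42.0, RLE and upper-quartile factors, total counts, no filter, the 2 compared groups alone, a replicate block, limma-trend (limma 3.58.1) on log2(FPKM + 1) and log2(FPKM + 0.1), removal of the length trend (lowess span 0.3), no fold threshold, each of 12 libraries left out, and MTP 4 with MTP+CR 4 left out. The deviations of log2 CPM from the group means correlated at -0.19 to 0.20 between same-numbered livers of different groups. The numbers were therefore not taken as pairs. Coordinates are from GENCODE vM21, which held 55227 of the table's identifiers, and promoter windows from RefSeq.

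The members and lists were chosen with earlier results of these data known. Named genes were the 9 members, for each called member the 3 tested genes with the smallest root mean square difference of centered log2 CPM (prior count 2), for each list the 3 called genes (or fewer) of lowest adjusted p, with at most 2 uncalled genes in lists without calls, and the defining cell type markers. Genes named outside this rule (Ripk3, Fasl, Tnf and genes named for a DESeq2 call alone) were chosen after their values were seen. The 4 livers per group are separate mice by the study's methods. Raw reads, serum and tissue measures were not analysed here, and values of some listed genes are not reported here.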

Additional observations from a re-analysis of the deposited data

Results flagged for a closer look

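In 30 groups of 4 livers, Dixon's test at the 95% level was applied to the 9 members' CPM and to the Casp8 to Cflar ratio, and chance marks about 1 group in 20. It marked 4 values. Fas was 41.2 CPM in MTP+CR 4, against 21.7 to 24.7 CPM in the other MTP+CR livers. Fas was 21.8 CPM in NC 3, against 26.5 to 27.5 CPM in the other NC livers. Casp8 was 38.1 CPM in NC 4, against 27.4 to 28.0 CPM in the other NC livers, and this liver lay closest to the MTP range. The Casp8 to Cflar ratio was 9.90 in MTP+CR 4, against 2.01 to 2.77 in the other MTP+CR livers, while the 13.3 CPM of Cflar in that liver did not pass the test.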

How the results depend on the processing

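Of 648 results of members under the alternatives, 558 kept their direction and their side of the threshold, 39 were no longer called, 21 became called and 30 changed sign, none of them called. The other named genes that were called, tried after the data were seen, kept their direction in all 1128 results and lost the call in 314. Both totals include the setting without a fold threshold, which reuses the main fold changes and gave the same calls. Those results were fixed beforehand. Also included are livers left out of the group not compared, which hardly moved the fold changes of the members. Members called for MTP against NC numbered 2, and 4 with total counts, 4 with either FPKM scale (where Fas, Tnfrsf1a and Ripk1 were added and Tnfrsf10b lost), 1 with only the compared groups, 1 with the replicate block (Casp8) and 0 to 3 with 1 library left out. They numbered 0 without MTP 3, NC 1 or NC 3. For MTP+CR against MTP they numbered 3, and 6 with total counts, 6 with either FPKM scale, 0 with only the compared groups and 0 to 3 with 1 library left out, being 0 without MTP 1, MTP 3 or MTP+CR 4. The replicate block lost the calls of Tnfrsf10b (MTP against NC) and Ripk1 (MTP+CR against MTP) and changed no other member's call. For MTP+CR against NC they numbered 0 throughout. Total counts moved the median of all genes to 0.50 (MTP against NC) and -0.54 (MTP+CR against MTP), with 2610 genes called higher and 321 lower in the first (397 and 423 with TMM) and 413 and 4133 in the second (903 and 989 with TMM). Relative to these medians, Casp8 changed by 1.45 and -1.18 with total counts. Fadd, Cflar and Mlkl were at -0.415, -0.385 and -0.0649 relative to the first median. DESeq2 called 850 higher and 914 lower, and 1726 and 1592. The replicate block called 218 higher and 321 lower in the first comparison. Between MTP+CR and NC livers, 50 genes were called higher and 152 lower, and 563 and 595 with DESeq2, 13 and 53 with the replicate block, 24 and 81 with only the compared groups, 24 and 92 without the filter and 20 and 59 on log2(FPKM + 1). The counts for MTP+CR against MTP were 124 and 196 with only the compared groups, 556 and 587 without the filter, and 437 and 2939 or 505 and 3986 on log2(FPKM + 1) or log2(FPKM + 0.1), which gave 1804 and 299 or 2083 and 334 for MTP against NC. Without both MTP 4 and MTP+CR 4 the counts were 1252 and 1363 for MTP against NC and 1826 and 1543 for MTP+CR against MTP and 32 and 99 for MTP+CR against NC. With 1 library left out, all calls numbered 244 to 2009, 261 to 4009 and 63 to 370 in the 3 comparisons. Signs changed for MTP against NC with total counts, log2(FPKM + 1) and log2(FPKM + 0.1) for Fadd (0.0842, 0.0665, 0.0856), Cflar (0.114, 0.0801, 0.0914) and Mlkl (0.434, 0.283, 0.336), and without MTP 4 and MTP+CR 4 for Mlkl (0.0239). For MTP+CR against MTP they changed for Fadd (-0.425, -0.319, -0.419, and -0.0803 with the length trend removed) and Cflar (0.0618 with the length trend removed, 0.0302 without MTP 4 and MTP+CR 4). For MTP+CR against NC they changed for Fas (-0.102 and -0.127 under those settings) and Ripk1 (0.102 with the length trend removed). With 1 library left out, MTP against NC ran from -0.0523 to 0.295 for Bid and -0.420 to 0.126 for Mlkl, MTP+CR against MTP from -0.0351 to 0.167 for Fadd, -0.541 to 0.0925 for Cflar and -0.404 to 0.040 for Mlkl, and MTP+CR against NC from -0.126 to 0.224 for Fas, -0.454 to 0.0462 for Tnfrsf1a and -0.283 to 0.00591 for Ripk1. The causes were not tested. Tnfrsf10b, with 9 to 24 counts in most libraries, has the widest interval.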
